A study of Oryza sativa Japonica Group with 20 samples.

Results

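The 9 genes described here encode the enzymes that make gibberellin (GA), a growth hormone, in rice (Oryza sativa, Japonica group). They were chosen by locus ID and not by any measured value, though with earlier results of these data known, out of 34555 genes listed in either RNA table. The early-step genes were CPS1 (LOC_Os02g17780), KS1 (LOC_Os04g52230), KO2 (LOC_Os06g37364) and KAO (LOC_Os06g02019). The late-step genes were GA20ox1 (LOC_Os03g63970), GA20ox2 (LOC_Os01g66100, the semi-dwarf gene SD1), GA20ox3 (LOC_Os07g07420), GA20ox4 (LOC_Os05g34854) and GA3ox2 (LOC_Os01g08220). The number after "Os" in each ID is its chromosome. A reference gene table of another assembly held an entry of the same name on the same chromosome for 6 of the 9, and none for GA20ox1, GA20ox4 and GA3ox2.

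RNA was sequenced from seedlings in 4 groups of 3 libraries. The slr1 group, whose genotype is labelled SLR1 knockout, was set against the wild type, labelled NIP, both at an age of 12 days. SLR1 encodes a DELLA protein, which holds back GA responses until the hormone triggers its breakdown. Wild-type seedlings given 100 uM GA through the roots for 1 h (GA) were set against wild-type controls (CK), for which the sources used here state no age. All seedlings grew in Murashige and Skoog medium under long days. The kind of slr1 mutation, the number of lines and whether replicates came from separate plants are not stated either. The p-values therefore cover the spread among the sequenced libraries alone, and this spread may be technical.

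GA synthesis begins in plastids, where CPS and KS turn geranylgeranyl diphosphate into ent-kaurene. The cytochrome P450 enzymes KO and KAO then oxidise it, and GA20 oxidases and GA3 oxidases finish the bioactive hormone in the cytosol. In plants the late oxidases are the steps best known for negative feedback, in which active GA lowers the transcripts of its own synthesis, while GA2 oxidases remove the hormone. Loss of a GA20 oxidase gives the semi-dwarf stature used in rice breeding.

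Levels are normalised reads, that is reads per gene divided by 1 size factor per library. The libraries held between 27778578 and 28010807 reads assigned to genes in slr1 and NIP and between 17919838 and 20979965 in GA and CK. Of the genes at 10 or more in at least 3 of 6 libraries, a gene passed at a limma adjusted p under 0.05 (Benjamini-Hochberg over all genes tested). The SLR1 transcript (LOC_Os03g49990) stood at 7310, 6380 and 7444 in slr1, against 6133, 6810 and 7340 in NIP, so it did not check the knockout label. Pairs of replicates correlated at 0.990 to 0.992 in GA and CK (Pearson r across tested genes) and at 0.963 to 0.986 in slr1 and NIP. NIP replicate 2 stood apart from its group, at 0.965 and 0.968 with the other replicates, which reached 0.986 with each other. To look at the seedling label, 6 leaf, 5 root and 5 shoot meristem marker genes were read. Those with values were above 0 in at least 1 library of each group. That bar is low, as the root marker LSI2 met it in NIP with 2 reads in all, so it did not check the label.

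The comparison of slr1 with NIP asked how these genes behave in plants labelled as lacking SLR1. Of the 9 genes, 8 were tested, 2 fell, none rose and 6 did not pass. CPS1, at the entry of the pathway, fell by 74.7%, and GA20ox1 fell by 50.02%. The 2 that fell were 1 early and 1 late gene. Of all 25132 genes tested, 12.8% fell and 12.0% rose. With a 2-fold minimum added, the same 2 genes were called, beside 7.14% of all genes lower and 6.57% higher. GA20ox1 met that minimum only barely, and its log2 fold change was -0.99 with both a pseudocount of 5 and TMM scaling, -0.90 without slr1 replicate 1 and -0.89 without NIP replicate 1, each short of 2-fold. In the authors' deposited table no gene of the list was higher at an adjusted p under 0.05 either. The 2 genes at an unadjusted limma p under 0.05 that did not pass, KO2 and GA20ox4, also had lower means in slr1. The median log2 fold change of the 8 was -0.57, against 0.01 for all genes tested.

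CPS1, the diphosphate synthase that commits the precursor to the pathway, had 80.8, 114 and 24.3 normalised reads in slr1, against 236, 254 and 242 in NIP. Every slr1 library lay below every NIP library, and the slr1 values differed among themselves far more than the NIP values. This was a log2 fold change of -1.98 (SE 0.52, 95% interval -3.21 to -0.76, n = 3 each, limma adjusted p = 0.0324). Its residual spread, an SD of 0.81 on the log2 scale, was larger than that of 95.1% of tested genes, whose median was 0.24. The call ended without NIP replicate 1, 2 or 3, at limma adjusted p = 0.0846, 0.0759 and 0.0981, while the fold change stayed between -2.01 and -1.95. Without slr1 replicate 3, the lowest library, the log2 fold change was -1.33 and passed (limma adjusted p = 0.00955).

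GA20ox1, a GA20 oxidase, had 181, 214 and 230 normalised reads in slr1, against 487, 369 and 400 in NIP. The groups did not overlap, and the spread on the log2 scale was similar in both (SD 0.18 in slr1 and 0.20 in NIP). On the log2 scale the change was -1.0 (SE 0.17, 95% interval -1.39 to -0.61, n = 3 each, limma adjusted p = 0.00749). It passed without any 1 library, at -1.09 to -0.89 and adjusted p values of 0.0119 to 0.0352. Its residual SD of 0.19 was below the median of all tested genes.

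GA20ox4, another GA20 oxidase, had 76.7, 378 and 198 normalised reads in slr1, against 471, 665 and 417 in NIP. The groups did not overlap, but slr1 replicate 2 came close to the lowest NIP value. The log2 fold change of -1.50 did not pass (SE 0.53, 95% interval -2.75 to -0.24, limma adjusted p = 0.0822). Without slr1 replicate 2 it was -2.03 and passed (limma adjusted p = 0.0262), and without slr1 replicate 1 it was -0.89 and did not (adjusted p = 0.102). The authors' deposited table gave a log2 fold change of -1.25 and an adjusted p of 0.0392. Groups that do not overlap were seen for 3 of the 8 genes (CPS1, GA20ox1 and GA20ox4) and for 45.1% of all genes tested.

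GA20ox2, whose loss gives semi-dwarf rice, had 127, 74.4 and 82.5 normalised reads in slr1, against 48.4, 86.2 and 39.6 in NIP. NIP replicate 2 lay among the slr1 values and above the other NIP values. Its log2 fold change of 0.73 did not pass (95% interval -0.10 to 1.57, limma adjusted p = 0.171), and without NIP replicate 2 it was 1.05 (limma adjusted p = 0.0605). GA20ox3 had 4.04, 0 and 3.88 normalised reads in slr1, against 0, 0 and 0 in NIP, and was below the level tested. These were 8 reads in all in slr1, too few to compare at this depth.

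GA3ox2, the enzyme of the last activating step, had 153, 111 and 21.4 normalised reads in slr1, against 129, 87.3 and 123 in NIP. The low value of slr1 replicate 3 lay below every NIP value and the other slr1 values lay within or above the NIP range. The log2 fold change was -0.63 (95% interval -2.23 to 0.97, limma adjusted p = 0.533) and turned to 0.22 without slr1 replicate 3. The interval holds both a fall of 78.7% and a rise of 96.3%, so no direction was measured.

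KO2, the kaurene oxidase, had 723.8, 1250.5 and 929.4 normalised reads in slr1, against 1219.9, 1608.8 and 1250.4 in NIP. The highest slr1 value reached the NIP range. Its log2 fold change of -0.51 did not pass (95% interval -1.02 to -0.01, limma adjusted p = 0.125), and it passed without slr1 replicate 2, at -0.72 (limma adjusted p = 0.0482). KAO, the kaurenoic acid oxidase, had 470, 733 and 448 normalised reads in slr1, against 261, 471 and 405 in NIP (log2 fold change 0.54, 95% interval -0.11 to 1.19, limma adjusted p = 0.191). The groups overlapped, since NIP replicate 2 lay above slr1 replicates 1 and 3. KS1, the kaurene synthase, had 710, 819 and 791 normalised reads in slr1, against 618, 885 and 653 in NIP, at a log2 fold change of 0.12. The groups overlapped, and the 95% interval of -0.26 to 0.50 lay within a 2-fold change in either direction (limma adjusted p = 0.612).

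**Figure D1:**
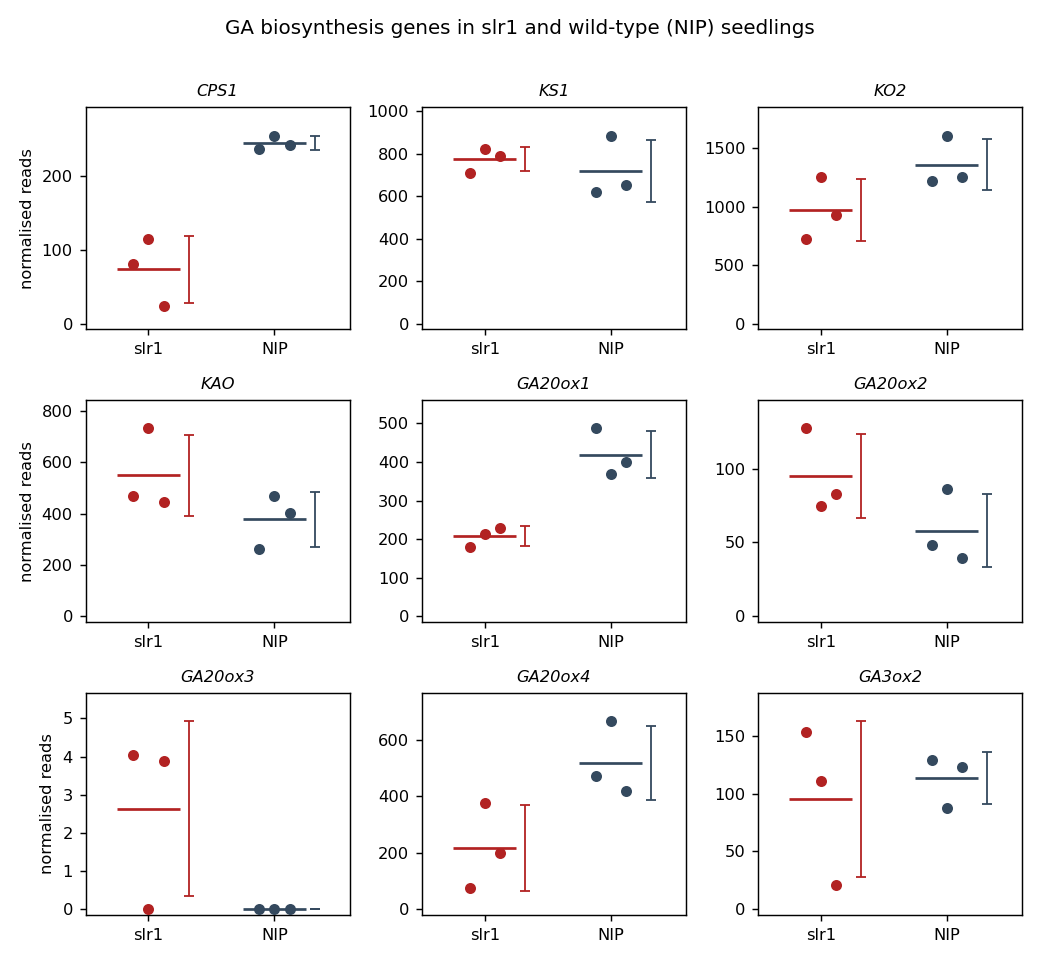
Each panel gives normalised reads of 1 gene (y axis, from 0) in the slr1 libraries (red) and NIP libraries (dark), 3 points each, with the mean as a line and the SD as a bar. For CPS1, GA20ox1 and GA20ox4 the groups are apart, while GA3ox2 spans 21.4 to 153 within slr1.

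Within slr1 the libraries ordered the genes differently. Slr1 replicate 1 held the lowest value of the group for 4 of the 8 tested genes (KS1, KO2, GA20ox1 and GA20ox4), and replicate 3 for 3 (CPS1, KAO and GA3ox2). Replicate 2 held the highest value of its group for 5 of the 8 in slr1 and for 6 of the 8 in NIP. Marker genes also moved with genotype. The summed level of 6 leaf marker genes ranged from 103252 to 234781 normalised reads in slr1, against 423048 to 686044 in NIP. The 3 RBCS genes among them, for the small subunit of Rubisco, made up most of that sum and fell (limma adjusted p = 0.00998 to 0.0244). The 3 LHCB genes, for light-harvesting proteins, overlapped between the groups and did not pass (log2 fold change -1.07, -0.35 and -0.13, limma adjusted p = 0.265 to 0.751). For the root list, 4 of 5 genes had values, and their sum was 505 to 985 in slr1, against 231 to 332 in NIP. Of the 2 tested, RCc3 rose (729, 252 and 183 in slr1, against 37.8, 9.58 and 26.4 in NIP, limma adjusted p = 0.00734), and LSI1 did not pass (log2 fold change 0.28, limma adjusted p = 0.413). The 5 KNOX genes, which mark the shoot meristem, summed to 1023 to 1709 in slr1, against 94.8 to 487 in NIP, and 3 of the 5 rose. The part of these markers in the changes of CPS1 and GA20ox1 was not tested, and in bulk seedling RNA fewer cells of a type cannot be told apart from less RNA per cell.

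The comparison of GA with CK asked how the same genes respond within 1 h of the hormone they help to make. Of the 8 genes tested, 4 fell (KO2, GA20ox1, GA20ox2 and GA20ox4), 1 rose (KAO) and 3 did not pass (CPS1, KS1 and GA3ox2). Thus 3 of 4 tested late genes fell, while of 4 early genes 1 fell and 1 rose. Of all 23283 genes tested, 15.9% fell and 17.1% rose. With a 2-fold minimum 0 of the 8 were called, beside 0.996% of all genes lower and 1.22% higher, and the edgeR log2 fold changes also stayed within -0.78 to 0.46. Without the minimum, edgeR's quasi-likelihood test passed as many, 4 lower and 1 higher, and 6 of the 8 had an unadjusted limma p under 0.05. The median log2 fold change of the 8 was -0.24, against -0.01 for all genes. GA20ox3 had no values in this comparison and was not tested.

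GA20ox1 was the gene of the list with the largest change after GA. It had 324, 352 and 327 normalised reads in GA, against 566, 581 and 579 in CK. The groups were far apart beside the few reads that separate the replicates. The log2 fold change was -0.78 (SE 0.07, 95% interval -0.92 to -0.64, n = 3 each, limma adjusted p = 4.81e-11), so that it fell by 41.8%, a larger change than that of 94.6% of tested genes. By p it ranked 452 of 23283, and it passed without any 1 library (-0.82 to -0.76).

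KAO rose, the opposite direction to the other genes that passed. It had 1030.2, 1067 and 944 normalised reads in GA, against 751, 735 and 726 in CK. The groups did not overlap (log2 fold change 0.46, SE 0.05, 95% interval 0.35 to 0.56, limma adjusted p = 2.66e-08). KO2, the enzyme that acts just before it, had 1009, 906 and 936 normalised reads in GA, against 1130.3, 1197 and 1133 in CK. Every GA library lay below every CK library (log2 fold change -0.28, SE 0.05, limma adjusted p = 3.34e-05). Both calls held without any 1 library (highest adjusted p = 0.000677 for KO2 and 2.38e-06 for KAO).

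GA20ox2 had 142, 160.3 and 138 normalised reads in GA, against 187, 183 and 180.2 in CK. The groups did not overlap, and the log2 fold change was -0.32 (SE 0.11, 95% interval -0.54 to -0.10, limma adjusted p = 0.0226). GA20ox4 had 402, 360.5 and 334 normalised reads in GA, against 398, 426 and 441 in CK. GA replicate 1 lay within the CK range, and the log2 fold change was -0.21 (SE 0.08, 95% interval -0.36 to -0.05, limma adjusted p = 0.0328). The authors' deposited table gave adjusted p values of 0.118 for GA20ox2 and 0.138 for GA20ox4, and each call ended without any of 4 of the 6 libraries (CK replicate 1 or 2 or GA replicate 1 or 3 for GA20ox2, CK replicate 2 or 3 or GA replicate 2 or 3 for GA20ox4), with highest limma adjusted p values of 0.0815 and 0.182.

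CPS1 had 165, 213 and 167 normalised reads in GA, against 220.9, 199.5 and 231.5 in CK. GA replicate 2 lay within the CK range, and the log2 fold change of -0.26 did not pass (95% interval -0.48 to -0.04, limma adjusted p = 0.0596). It passed without CK replicate 2 (adjusted p = 0.0430) or GA replicate 2 (adjusted p = 0.00931). KS1 had 373, 397 and 357 normalised reads in GA, against 373, 400 and 428 in CK. The groups overlapped (log2 fold change -0.09, 95% interval -0.24 to 0.06, limma adjusted p = 0.390). GA3ox2 had 92.1, 61.2 and 74.3 normalised reads in GA, against 73.3, 62.5 and 63.5 in CK (log2 fold change 0.17, 95% interval -0.18 to 0.53, limma adjusted p = 0.489). For KS1 and GA3ox2 the interval holds no fall as large as that of GA20ox1, whose own interval ends at -0.64.

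**Figure D2:**
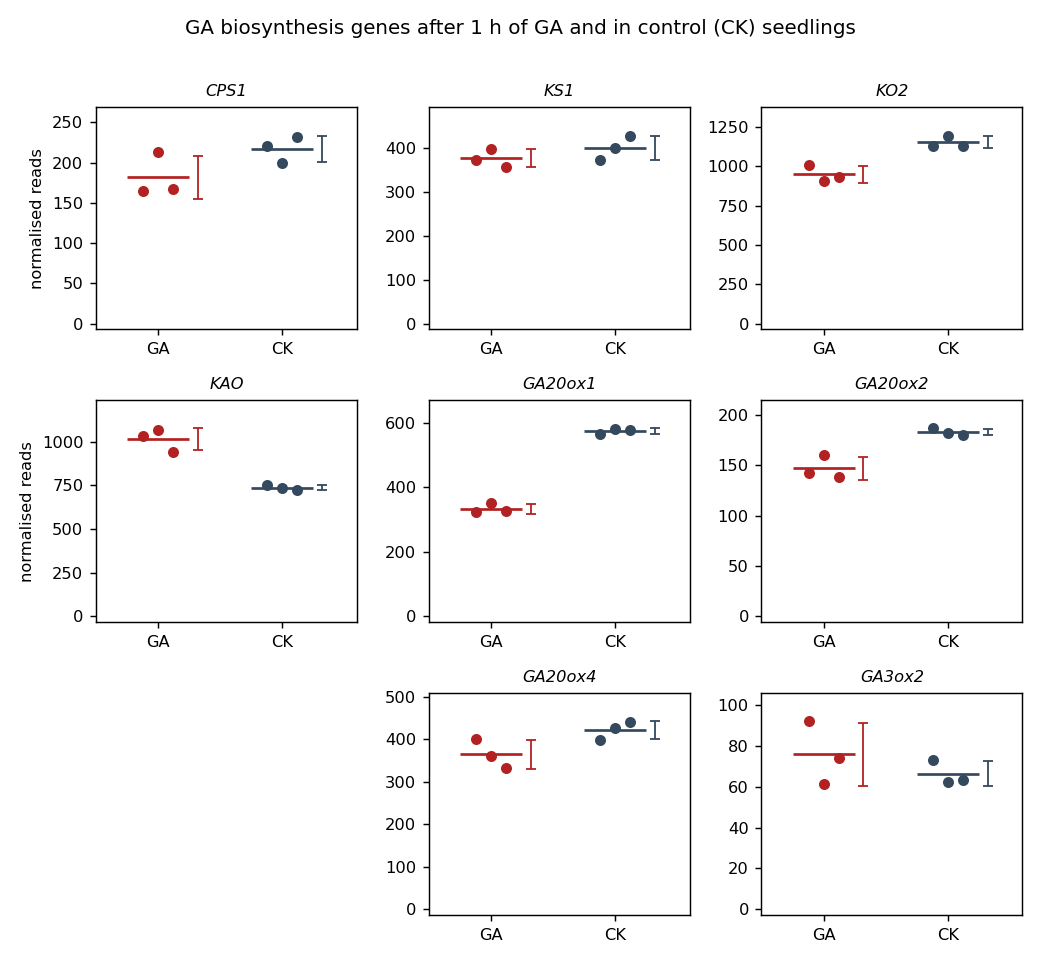
Each panel gives normalised reads of 1 gene (y axis, from 0) in the GA libraries (red, 1 h) and CK libraries (dark), 3 points each, with the mean as a line and the SD as a bar. For KO2, KAO, GA20ox1 and GA20ox2 the groups are apart, with KAO higher and the other 3 lower in GA.

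Groups were apart for 4 of the 8 genes, beside 43.3% of all genes tested. The replicates of GA and CK differed less than those of slr1 and NIP. The residual SD of GA20ox1 was 0.05 on the log2 scale and that of GA3ox2, the widest of the 8, was 0.22, against 0.11 for the median gene. Markers moved here as well. The 6 leaf genes summed to 1104596 to 1128096 normalised reads in GA, against 1256298 to 1273874 in CK, and all 6 fell. The 5 KNOX genes summed to 195 to 206 in GA, against 25.8 to 42.9 in CK, and the 4 tested rose. For the root list, 3 of 5 genes had values, and the sums overlapped, at 372 to 407 in GA and 362 to 430 in CK. Most of that sum was LSI1, which did not pass, while RCc3 rose, with 45.0, 36.0 and 38.7 in GA against 5.16, 1.86 and 3.73 in CK (log2 fold change 3.22, limma adjusted p = 4.45e-08). The part of these markers in the changes was not tested.

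**Figure D3:**
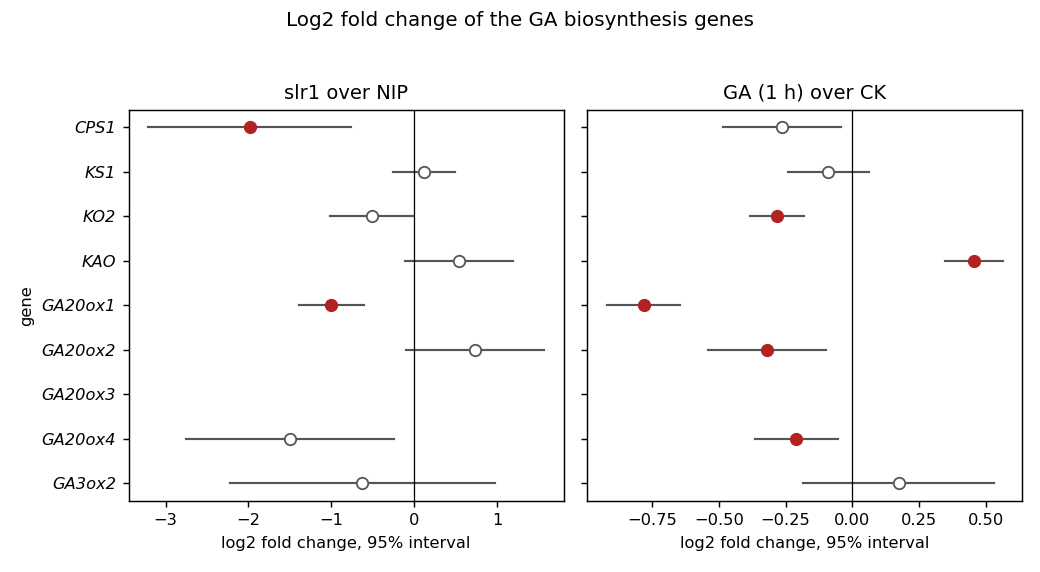
Points give the limma log2 fold change of each gene and lines its 95% interval, for slr1 over NIP (left) and GA over CK (right, on a narrower axis). Filled points passed at an adjusted p under 0.05. GA20ox1 passed in both panels, at -1.0 and -0.78, and GA20ox3 was not tested.

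GA20ox1 passed in both comparisons, which share no library, and was lower in each. CPS1 stood at -1.98 in slr1 over NIP and at -0.26 in GA over CK, KAO at 0.54 and 0.46, KO2 at -0.51 and -0.28, GA20ox4 at -1.50 and -0.21, and GA20ox2 at 0.73 and -0.32. Both tables were normalized separately and no test was made of one comparison against the other.

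To set the 4 groups side by side, reads per gene were divided by the library's total of reads in genes and scaled to counts per 1e6 reads (CPM). The tables were normalized separately, so the order of groups across them is a description. GA20ox1 averaged 7.56 ± 1.06 CPM in slr1 and 14.9 ± 2.88 in NIP, and 17.4 ± 0.81 in GA and 29.4 ± 0.50 in CK (SD, n = 3 each). The order was thus CK, GA, NIP and slr1, with overlap between GA and NIP. CPS1 had the same order, at 2.64 ± 1.66 CPM in slr1 and 8.63 ± 0.11 in NIP, and 9.48 ± 1.41 in GA and 11.1 ± 0.84 in CK. So did KO2, at 35.2 ± 10.1 CPM in slr1 and 47.9 ± 5.44 in NIP, and 49.6 ± 2.71 in GA and 59.0 ± 1.96 in CK. GA20ox4 followed it too, at 7.93 ± 5.57 CPM in slr1 and 18.2 ± 3.88 in NIP, and 19.1 ± 1.76 in GA and 21.6 ± 1.16 in CK. Neighbours in the order of these 3 genes overlapped except for CPS1 and GA20ox4 between NIP and slr1 and for KO2 between CK and GA. KAO had another order, at 19.96 ± 5.91 CPM in slr1 and 13.3 ± 3.20 in NIP, and 52.9 ± 3.30 in GA and 37.7 ± 0.53 in CK. Neighbours did not overlap in CPM, but slr1 and NIP overlapped in normalised reads, where NIP replicate 2 lay above 2 of the 3 slr1 libraries. GA20ox2 had 3.42 ± 0.95 CPM in slr1 and 2.03 ± 0.78 in NIP, and 7.67 ± 0.62 in GA and 9.36 ± 0.14 in CK, with overlap between slr1 and NIP. Between the untreated wild types, the CK mean was 4.604 times the NIP mean for GA20ox2, 2.84 times for KAO and 1.97 times for GA20ox1, and experiment and seedling age cannot be told apart there. The same groups also differed in some leaf markers, given here in normalised reads and not CPM. The 3 LHCB genes, for light-harvesting proteins, averaged 169949 to 235544 in CK and 1207 to 2271 in NIP. The 3 RBCS genes were much closer, at 379493, 213478 and 87190 in CK and 248304, 251401 and 61490 in NIP. The part of the LHCB difference in these ratios was not tested. KS1 was highest in slr1, at 28.0 ± 2.58 CPM, with 25.3 ± 3.91 in NIP, and had 19.6 ± 1.08 in GA and 20.4 ± 1.47 in CK. Its slr1 and NIP values overlapped, as did GA and CK, while NIP and CK were apart. GA3ox2 was at 3.42 ± 2.38 CPM in slr1 and 4.02 ± 0.96 in NIP, and at 3.96 ± 0.80 in GA and 3.39 ± 0.30 in CK, and all neighbours in its order overlapped. Levels were not compared between genes, because gene lengths were not used here.

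Some of the genes correlated when the 12 libraries were pooled. On the log2 scale, centred in each table, KO2 and GA20ox4 had a Pearson r of 0.94, and it was 0.95 with each group's own mean removed. In slr1 both were lowest in replicate 1 and highest in replicate 2, and in NIP both were highest in replicate 2. In CK, KO2 was highest in replicate 2 but GA20ox4 in replicate 3. Their residual SDs were 0.32 and 0.85 in slr1 and NIP, against 0.07 and 0.11 in GA and CK. The slr1 and NIP libraries therefore weigh most in this r. CPS1 was nearest to GA3ox2 (0.70, and 0.84 within groups), and both were lowest in slr1 replicate 3. In NIP and in GA their replicates ran in opposite order, with CPS1 highest and GA3ox2 lowest in replicate 2. GA20ox1 was nearest to GID1, the GA receptor gene, among 15 genes of the other GA lists, at 0.91, but at 0.04 within groups, so this likeness lay between the groups. Its nearest gene among the 9 was KO2 (0.72, and 0.06 within groups). KAO was nearest to KS1 (0.49, and 0.66 within groups) and, among the other lists, to GA2ox1 (0.76, and 0.38 within groups). KS1 and GA20ox2 were nearest to each other (0.57, and 0.48 within groups). Among the other lists, KS1 was nearest to GA2ox8 (0.53, and 0.57 within groups) and GA20ox2 to EUI1 (0.70, and 0.34 within groups), a P450 gene that removes GA. GA2ox9 was the nearest list gene for CPS1 (0.66, but 0.04 within groups), KO2 (0.76, and 0.37 within groups) and GA20ox4 (0.64, but 0.18 within groups). GA3ox2 was nearest to GID2, an F-box gene of GA signalling, at 0.46 and at 0.88 within groups. In slr1, where GA3ox2 spread most, both were highest in replicate 1 and lowest in replicate 3. Libraries of a group share treatment and handling, and these values are descriptions of 12 libraries without a test.

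The other GA pathway genes give the setting. Their names were paired with locus IDs from general knowledge, and for the GA2ox genes the reference table held no entry of the same name. The GA inactivation list held 10 genes, of which 9 were tested in each comparison. In slr1 6 rose and 1 fell, and the median log2 fold change was 2.35. The largest rises were of GA2ox4 (LOC_Os05g43880) at 2.97 (SE 0.36, limma adjusted p = 0.00324) and GA2ox7 (LOC_Os01g11150) at 2.81 (SE 0.45, adjusted p = 0.00660), and GA2ox9 (LOC_Os02g41954) fell at -1.36 (SE 0.38, adjusted p = 0.0415). After GA 4 rose, among them GA2ox1 (LOC_Os05g06670) at 1.77 and GA2ox7 at 1.45, 1 fell (GA2ox9, at -0.85), and the median was 0.44. The genes of this list encode enzymes that remove GA, mostly GA2 oxidases. Of the 5 genes for perception and signalling, 1 rose and 1 fell in slr1, and 3 rose and 1 fell after GA. The gene that fell in both was GID1 (LOC_Os05g33730), at -0.74 (limma adjusted p = 0.0161) in slr1 and -0.70 (adjusted p = 4.46e-14) after GA. Beside the counts of both lists, 12.0% of all genes tested rose and 12.8% fell in slr1, and 17.1% rose and 15.9% fell after GA.

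**Figure D4:**
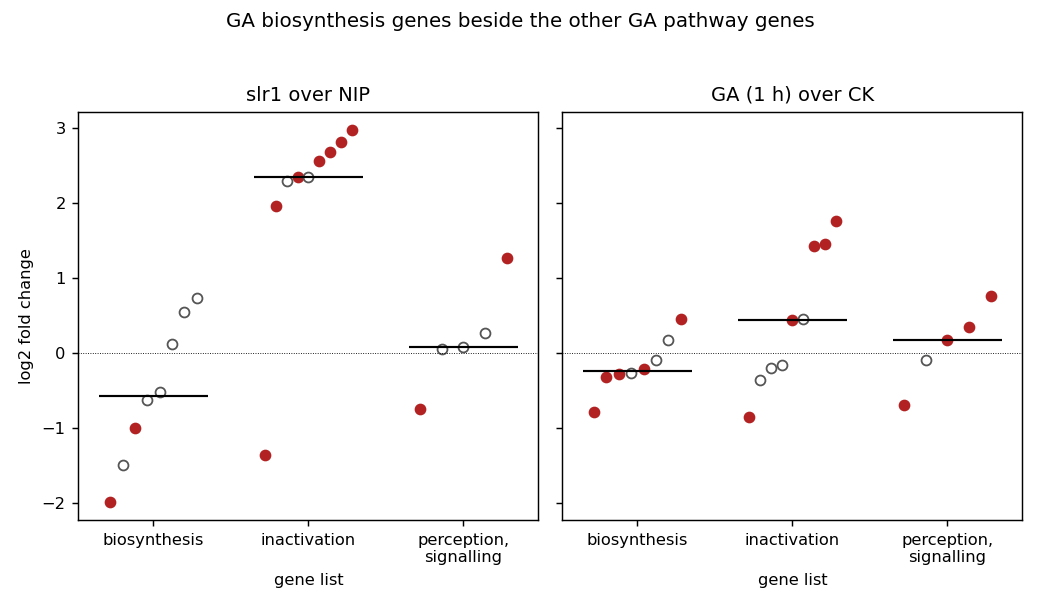
Points are the log2 fold changes of the tested genes of 3 GA lists in slr1 over NIP (left) and GA over CK (right), filled where the adjusted p was under 0.05, with the list's median as a line. The medians of the biosynthesis genes lie at -0.57 and -0.24 and those of the inactivation genes at 2.35 and 0.44.

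KO2 lies in a family of kaurene oxidase genes with neighbouring IDs, whose reads a counter could split, so its level is uncertain to that extent. A list of 4 genes held other biosynthesis genes and neighbours of KO2. Only the neighbours KOL4 and KOL5 were tested in slr1, with 0 at an unadjusted limma p under 0.05. The rest of that list had no values or too few reads to be tested in slr1. KOL4 (LOC_Os06g37300) had 272, 14.7 and 22.3 normalised reads in slr1, against 1695, 12.8 and 2215 in NIP, and KOL5 (LOC_Os06g37224) had 33.3, 3.91 and 8.74, against 277, 2.13 and 346. Both were low in NIP replicate 2 beside very high values in the other NIP libraries, and neither passed (limma adjusted p = 0.315 and 0.338). KO2 itself was highest, not lowest, in NIP replicate 2. After GA, KOL4 fell, at 1.07, 1.94 and 4.19 normalised reads in GA and 15.5, 12.1 and 14.0 in CK (7 reads in all in GA and 43 in CK, log2 fold change -2.23, SE 0.52, limma adjusted p = 0.001005). KOL5 was named after its values were seen, as was KOL4 in slr1.

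**Figure D5:**
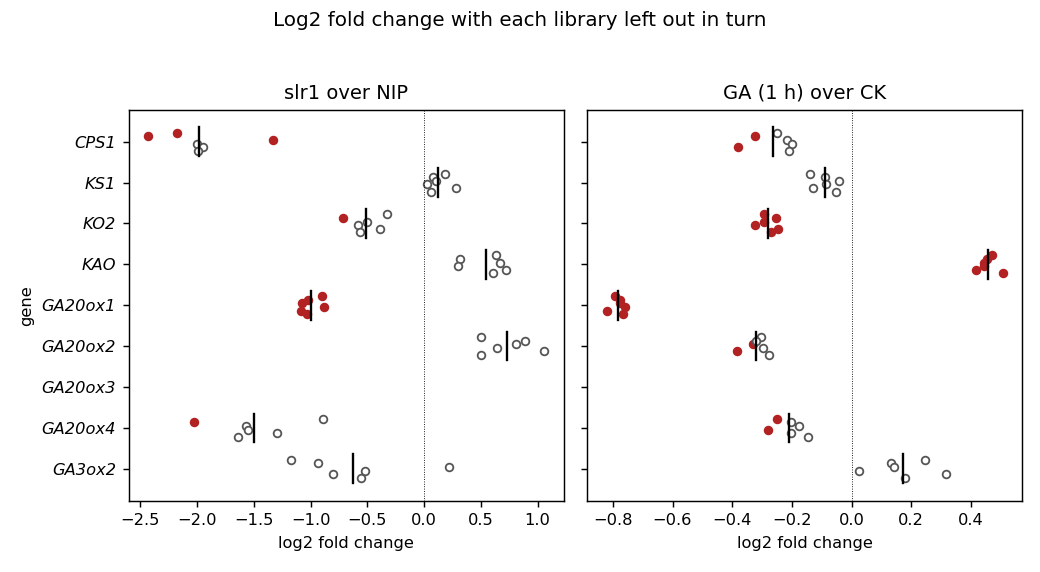
Points are the log2 fold change of each gene with 1 of the 6 libraries left out, filled where the adjusted p was under 0.05, and black bars mark the value with all libraries. GA20ox1 passed at all 12 points, while GA3ox2 in slr1 ran from -1.17 to 0.22.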

How the data were processed

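Per the submitters' processing notes, the tools named are DESeq2 1.38.3, DESeq, featureCounts 2.0.0 and HISAT2. No source used here names a build or a strand setting. Each deposited library value is a signal: the gene's reads over that library's size factor. The authors' mean level is a signal too. The deposited tables add the authors' log2 fold changes, a test statistic (score) and the p-values. All values (100%) were whole multiples of 1 read within 0.01, but a count test was run on the GA table only.

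Genes at 10 or more in at least 3 of 6 libraries were tested with limma 3.58.1 (R 4.3.3, trend) on log2(value + 1), which understates the change of low genes. edgeR 4.0.16 on the recovered reads of the GA table was an alternative. The fits were tested on simulated data. The genes, lists and alternatives were chosen with earlier results of these data known. All 9 genes are named, and from the other GA lists at most the 2 largest changes that passed in each direction. Exceptions are SLR1, the targeted gene, the gene nearest in pattern to each of the 9, the marker genes, and KOL4 and KOL5 in slr1, named after their values were seen. The H3K27me3 peak lists of the series were not used here.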

Additional observations from a re-analysis of the deposited data

How the results depend on the processing

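Settings were changed singly. In slr1 over NIP, the count of GA biosynthesis genes that fell was 2, and 1 to 4 without 1 library, and 0 rose under any setting run. In GA over CK the count that fell was 4, and 2 to 4 without 1 library, and the count that rose was 1 throughout, but with a 2-fold minimum both were 0. The log2 fold change of GA3ox2 in slr1 ran from -1.17 to 0.22 without 1 library, and only the value without slr1 replicate 3 was above 0. Pseudocounts of 0.5 and 5, no filter, a mean of at least 20, TMM scaling, and edgeR with TMM or RLE in the GA table changed no call at an adjusted p under 0.05 on the 8 genes. With the 2-fold minimum, the GA20ox1 call in slr1 is lost at a pseudocount of 5 and with TMM scaling (log2 fold change -0.99 in both). The edgeR alternatives were not run on the slr1 table. Over all genes, 3026 rose and 3222 fell in slr1, against 1529 and 1419 without NIP replicate 3 and 1714 and 2007 without NIP replicate 1. With the 2-fold minimum, 1795 fell in slr1, against 993 without NIP replicate 3. After GA, 284 rose and 232 fell with that minimum, against 180 and 163 at a pseudocount of 5, 414 and 392 without a filter, and 199 and 145 at a mean of at least 20.

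Over all tested genes, same-numbered replicates did not clearly deviate together (correlations of -0.16 to 0.19). No pairing by number was seen there, but 3 replicates per group cannot exclude it. Of the 8 genes, however, CPS1, KS1, KO2, KAO and GA20ox4 were highest in replicate 2 of both slr1 and NIP. With the replicate number as a block, 3 genes fell in slr1, GA20ox4 being added at a limma adjusted p of 0.0460. The block also brought KO2 in slr1 to a limma adjusted p of 0.0540 and KAO to 0.101, and neither passed. GA over CK kept its counts of 4 lower and 1 higher with the block. The wide spread among slr1 replicates limits what could pass there for CPS1, GA20ox4 and GA3ox2.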
